A study of Homo sapiens with 6 samples.

Results

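The cytosolic ribosomal protein genes were examined after knockdown of TAZ in the leukaemia cell line OCI-AML2, which was established from an acute myeloid leukaemia. TAZ is the symbol the tables use for tafazzin, which edits the fatty acids of cardiolipin in mitochondria. Genes were taken by name: RPSA, RPLP0, RPLP1, RPLP2 and every symbol that starts with RPL or RPS followed by a digit. S6 kinase genes, like-named paralogs such as RPL22L1 and RPL26L1, and pseudogene names were left out. This gave 80 of the 13002 genes listed, 31 of the small subunit and 49 of the large subunit. One of the 80, RPL17-C18orf32, is the name of a readthrough transcript.

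The cells were infected with lentivirus carrying a short hairpin RNA (shRNA) and selected in 2.0 µg/mL puromycin for 3 days. There were 3 groups of 2 libraries each, lettered A and B: Control_shRNA, TAZ_shRNA1 and TAZ_shRNA2. All groups were the same line, went through the same infection and selection, and differed in the hairpin. The labels do not say whether A and B were separate infections. The p-values set the difference between groups against the spread of libraries within a group, moderated with a trend over all tested genes. That spread may be only technical. RNA levels are given as RPKM, reads scaled by gene-model length and library depth.

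A cytosolic ribosome is built from a small and a large subunit, each an assembly of ribosomal RNA and many proteins present in single copy. An exception is the stalk of the large subunit, where RPLP0 anchors dimers of RPLP1 and RPLP2 that recruit translation factors. Messenger RNAs for ribosomal proteins are among the most abundant in growing cells and are short, and most begin with a 5' terminal oligopyrimidine (TOP) tract, a C followed by a run of pyrimidines, through which mTORC1 and the RNA-binding protein LARP1 control their translation and stability.

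TAZ checked the labels. Its RPKM was 11.3 and 11.9 in the control libraries, 4.02 and 4.10 in the TAZ_shRNA1 libraries and 1.47 and 2.13 in the TAZ_shRNA2 libraries. The log2 fold change against the control was -1.41 (SE 0.13, limma adjusted p = 0.00205) with shRNA1 and -2.41 (SE 0.18, limma adjusted p = 0.00245) with shRNA2. Between 18820682 and 20980888 reads per library fell in listed genes. Of the myeloid markers, PTPRC, SPI1, CEBPA and LYZ were above 50 RPKM in every library, whereas KIT was below 1 RPKM and CD34 was not among the listed genes. The markers of T cells, B cells and platelets that were listed stayed below 1 RPKM. LYZ, which encodes lysozyme, was at 676 to 786 RPKM in the control libraries and at 3490 to 5240 RPKM in the 4 hairpin libraries. MPO, which encodes myeloperoxidase, went the other way, from 11.2 and 10.1 RPKM in the control libraries to 5.16 and 4.63 with shRNA1 and 1.02 and 1.49 with shRNA2. CD14, a monocyte surface marker, was at 1.17 to 2.44 RPKM in the control and shRNA1 libraries and at 13.4 and 7.97 with shRNA2. PTPRC, CD33, FLT3 and CSF3R were higher in each of the 4 hairpin libraries than in both control libraries. For PTPRC the values were 58.5 and 62.4 RPKM in the control and 84.2 to 100 RPKM with the hairpins. ITGAM was higher too, at 1.27 RPKM or less. SPI1 stayed between 117 and 145 RPKM and CEBPA between 103 and 147 RPKM over the 6 libraries. The part of these marker differences in the results below was not tested.

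Ribosomal protein genes dominated the control transcriptome. Of the 80 genes, 62 had a mean of at least 1000 RPKM in the control libraries, and 63 were among the 100 genes with the highest level. The median over the 78 genes that were tested was 2270 RPKM, against 10.5 RPKM for the other tested genes. Small subunit genes had a median of 2060 RPKM and large subunit genes 2480 RPKM. The 5 highest were RPL7 (7560 RPKM), RPS18 (6800 RPKM), RPS6 (5780 RPKM), RPL41 (5580 RPKM) and RPLP1 (5040 RPKM). RPS6 is the small subunit protein that S6 kinases phosphorylate, and RPL41 encodes the smallest protein of the ribosome.

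The lower end of the ranking held genes with known peculiarities. RPS27L, a paralog of RPS27 that p53 induces, had 129 RPKM, and RPL36A, whose retrocopy RPL36AL is expressed at a higher level here, had 109 RPKM. RPL21 had 17.3 RPKM from 83 to 198 reads per library. RPL21 has many near-identical processed pseudogenes, so its count depends on how reads with several matches were treated, and its values are uncertain. RPL3L, the paralog of RPL3 typical of striated muscle, had 0.328 RPKM, and RPL17-C18orf32 had 0.318 RPKM. These last genes were the 2 of 80 that stayed below the minimum of 1 RPKM and were not tested. Pseudogene copies exist for most of the other members as well. The 13 ribosomal protein pseudogene names in the tables were far lower than their parents, with RPSAP58 highest at 11.7 to 23.6 RPKM.

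**Figure D1:**
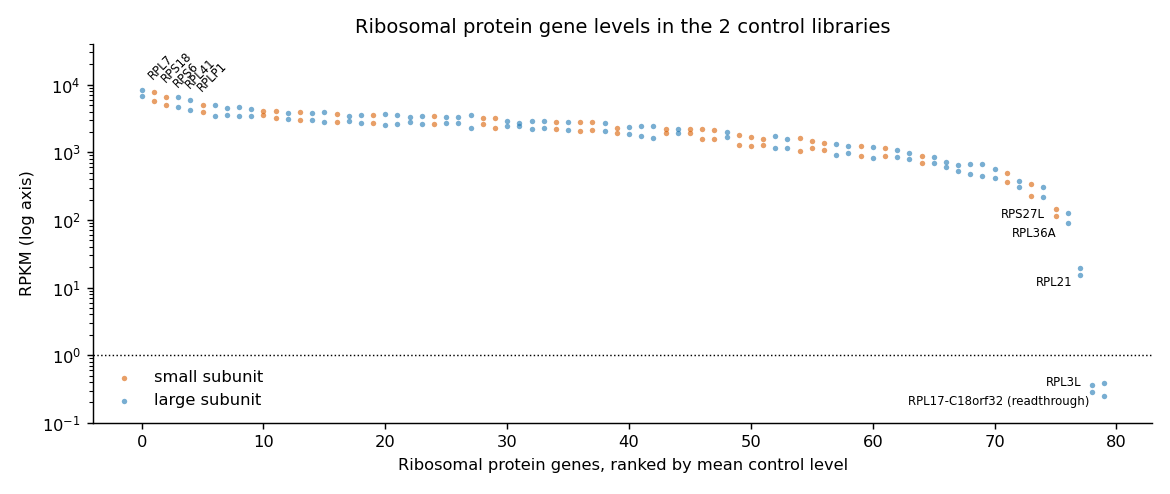
RPKM (log axis) of the 80 ribosomal protein genes in the 2 control libraries, ranked by their mean, with 1 point per library and the subunits in separate colours. Levels fall slowly from RPL7 at 7560 RPKM through 62 genes at 1000 RPKM or more, then steeply at RPS27L, RPL36A and RPL21, and the 2 untested genes lie below the dotted line at 1 RPKM.

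The TOP tract can be read at the annotated start sites of these genes. Start windows came from RefSeq (GRCh38.p14), which had an entry for 65 of the 80 genes, with 81 start sites in all. A tract was counted where a motif began within 5 bases of a start on the gene's strand. The motifs searched were CTTTTC, then CTTTC, and the forms CTCTTTC or CCTTTC, which overlap with the second because both end in its letters. It was present in 36 of 65 ribosomal protein genes (55.4%) and in 3.74% of all 27305 genes in that reference. The share was 60% for the small subunit and 52.5% for the large subunit. The letters CCGGAAG, on either strand of the 250 bases before to 50 bases after a start, were found for 35.4% of the members, 12.2% of all genes and 22.7% of the other genes listed in the tables. AAGATGGC, searched the same way, was found for 9.23%, 3.52% and 6.60%, and the tract for 4.36% of the other listed genes.

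The windows below run from 40 bases before to 20 bases after the start, 5' to 3' on the gene's strand, with the matched tract in capitals. They show the gene called with shRNA1 (RPL13A) and those with the 5 lowest fold changes with either hairpin (RPL35, RPL36, RPL41, RPS14, RPS21, RPL21, RPLP2 and RPS10). RPSA and RPS18 follow, and then the paralogs RPS27 and RPS27L. RPS18 changed less with either hairpin (log2 fold change -0.14 and -0.04). RPSA changed less with shRNA1 (0.02) but had -0.33 with shRNA2. The positions are chr19:49487568-49487627 (plus strand) for RPL13A, chr9:124861938-124861997 (minus) for RPL35, chr12:56116593-56116652 (plus) for RPL41, chr5:150449720-150449779 (minus) for RPS14, chr11:809927-809986 (plus) for RPLP2, chr19:5690255-5690314 (plus) for RPL36, chr20:62387063-62387122 (plus) for RPS21, chr13:27251518-27251577 (plus) for RPL21, chr6:34426050-34426109 (minus) for RPS10, chr3:39406680-39406739 (plus) for RPSA, chr6:33272035-33272094 (plus) for RPS18, chr1:153990722-153990781 (plus) for RPS27 and chr15:63157458-63157517 (minus) for RPS27L.
RPL13A: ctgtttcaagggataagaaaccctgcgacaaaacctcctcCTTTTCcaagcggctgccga
RPL35: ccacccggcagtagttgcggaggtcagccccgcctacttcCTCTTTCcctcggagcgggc
RPL41: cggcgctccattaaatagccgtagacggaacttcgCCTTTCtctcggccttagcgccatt
RPS14: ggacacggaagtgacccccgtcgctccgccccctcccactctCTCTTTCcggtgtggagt
RPLP2: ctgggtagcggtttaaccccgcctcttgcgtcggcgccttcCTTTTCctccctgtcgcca
RPS10: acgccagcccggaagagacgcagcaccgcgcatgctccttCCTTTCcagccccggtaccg
RPL21: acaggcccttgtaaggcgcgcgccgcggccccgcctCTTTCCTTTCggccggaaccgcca
RPL36: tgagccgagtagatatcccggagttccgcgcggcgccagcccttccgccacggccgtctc
RPS21: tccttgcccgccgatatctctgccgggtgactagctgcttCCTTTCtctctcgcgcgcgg
RPSA: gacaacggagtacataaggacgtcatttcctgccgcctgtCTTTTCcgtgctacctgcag
RPS18: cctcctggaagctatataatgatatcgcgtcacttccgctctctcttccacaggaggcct
RPS27: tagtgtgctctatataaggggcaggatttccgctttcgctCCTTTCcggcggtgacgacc
RPS27L: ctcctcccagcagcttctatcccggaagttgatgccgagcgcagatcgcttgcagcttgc
RPS27 carries the tract and its paralog RPS27L does not, and none was matched in RPL36. RPS18 has a pyrimidine run at its start that none of the 4 motifs matches, so the share above counts only tracts of these exact letters. Among the 64 tested genes with an entry, the 36 with a tract had a median log2 fold change of -0.413 with shRNA1 and -0.402 with shRNA2. For the 28 in which none of the 4 motifs matched, the medians were -0.328 and -0.349. Some of these 28 have other pyrimidine runs at the start, as RPS18 does. These are descriptions and were not tested against each other.

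Ribosomal protein RNA made up a smaller part of the hairpin libraries than of the control libraries, but the control libraries differed from each other by as much. The share of reads in listed genes that fell in the 80 genes was 16.2% in control A and 13.42% in control B. It was 11.82% and 12.16% in the TAZ_shRNA1 libraries and 13.41% and 11.34% in the TAZ_shRNA2 libraries. Control A was above all others, and TAZ_shRNA2 A was level with control B. The group means were 14.8% ± 1.97 (SD, n = 2) for the control, 12% ± 0.24 (SD, n = 2) for shRNA1 and 12.4% ± 1.46 (SD, n = 2) for shRNA2. The exact two-sided permutation test gave p = 0.333 for either hairpin, the smallest value that 2 libraries against 2 can give.

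The same order held gene by gene. Relative to the mean of the control libraries, the median of the 78 tested genes on the log2 scale was 0.188 in control A and -0.188 in control B, -0.363 and -0.344 in TAZ_shRNA1 A and B, and -0.186 and -0.537 in TAZ_shRNA2 A and B. All 78 tested genes were higher in A than in B in the control, by a median of 0.376, and all 78 were higher in A than in B with shRNA2, by a median of 0.368. With shRNA1 the libraries were close, and 43 of 78 were higher in A, with a median difference of 0.016. Control A held the highest value of the 6 libraries for 77 of the 80 genes, and TAZ_shRNA2 B the lowest for 66.

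**Figure D2:**
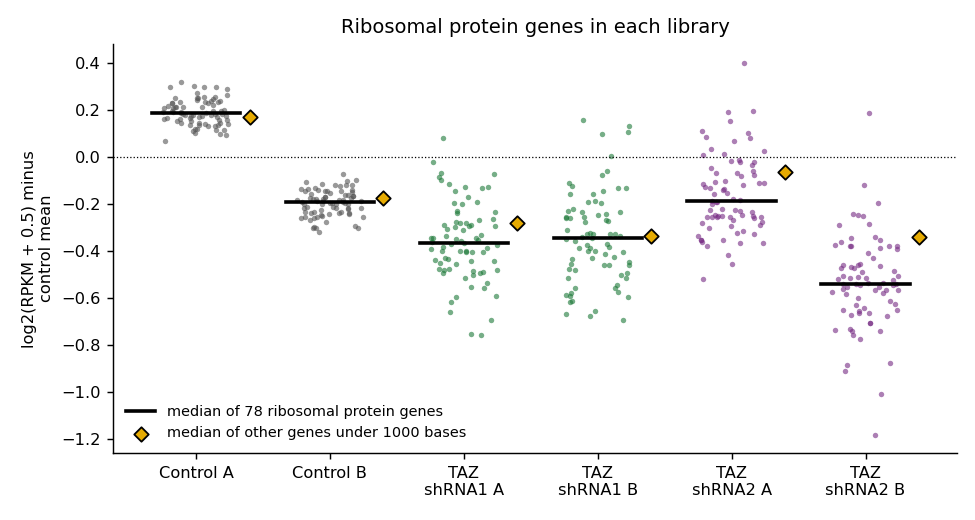
Each point is a tested ribosomal protein gene in a library, as log2(RPKM + 0.5) minus the gene's mean in the control libraries; black lines are medians of the 78 genes and diamonds are medians of the 722 other tested genes under 1000 bases. The A and B libraries of the control and of TAZ_shRNA2 lie apart by 0.376 and 0.368, and the diamonds too are highest in control A and lowest in TAZ_shRNA2 B.

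The comparison of TAZ_shRNA1 with the control asks what changed with the first hairpin. Of the 78 tested genes, 74 had a lower value (50.0% of all tested genes did), and the median log2 fold change was -0.351, against 0.00 over all 10613 tested genes. For 65 of the 78, both hairpin libraries were below both control libraries, which held for 32.5% of all tested genes. In the limma test 1 gene fell and 0 rose, whereas 8.58% of all tested genes fell and 9.99% rose. The number with a lower value at an unadjusted p under 0.05 was 17 (21.8%), against 17.3% of all genes. This number depended on the fit. It was 12 without a filter and in a fit of all 6 libraries, and 31 without a variance trend. By limma-voom on reads recovered from the RPKM it was 37 with TMM and 42 with total-read scaling. The share of all genes at that limit is not given for these fits, so these counts have no background to be read against. At the adjusted threshold, no member fell without a filter or in the fit of all 6 libraries, against 6.92% and 8.31% of all tested genes. Without a variance trend 5.13% of the members fell at that threshold, against 7.65% of all tested genes. The authors' deposited table, which rests on their own count model, has 43 of 80 genes lower at an adjusted p under 0.05, against 17.1% of all listed genes.

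The gene that fell was RPL13A (gene ID 23521), a large subunit protein that is also known as the subunit of a complex that silences translation of inflammatory messages. Its RPKM was 865 and 696 in the control libraries and 515 and 516 in the TAZ_shRNA1 libraries. The hairpin libraries were thus nearly equal and both below the controls. The log2 fold change was -0.59 (SE 0.16, limma adjusted p = 0.0470). Over all alternatives its log2 fold change lay between -0.74 and -0.35 with adjusted p from 3.86e-05 to 0.406 (limma or limma-voom). It did not pass without a filter, with the GC trend removed, in 1 fit of all 6 libraries or without either TAZ_shRNA1 library. On recovered reads, limma-voom called the same 10 genes lower with TMM and with total-read scaling: RPL13A, RPL17, RPL35, RPL36, RPL37, RPL41, RPLP1, RPS10, RPS14 and RPS24. These are 12.8% of the 78, against 9.15% and 7.31% of all tested genes lower in those fits.

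The lowest log2 fold changes belonged to RPL41, RPL35, RPL36, RPS14 and RPS21, none of which passed the test. RPL41 had 6550 and 4610 RPKM in the control libraries and 3250 and 3440 RPKM with shRNA1 (log2 fold change -0.72, SE 0.25, limma adjusted p = 0.0881). RPL35 had 3580 and 2300 RPKM in the control libraries and 1770 RPKM in both shRNA1 libraries (-0.69, SE 0.25, limma adjusted p = 0.0913). In both genes the groups did not overlap, and the distance between the control libraries exceeded that between control B and the hairpin libraries. RPS14, the small subunit gene whose loss of 1 copy marks the 5q- syndrome, had 3660 and 2830 RPKM in the control libraries and 2040 and 2160 RPKM with shRNA1 (-0.62, limma adjusted p = 0.0852). The fold changes of RPL36 and RPS21 were -0.64 and -0.60.

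At the other end were genes with no lower mean with shRNA1. RPL10, a late-joining large subunit protein mutated in T-cell leukaemia, had 708 and 600 RPKM in the control libraries and 690 and 704 RPKM with shRNA1 (log2 fold change 0.10, SE 0.16). For RPSA, the small subunit protein also described as the laminin receptor, the values were 2300 and 1960 RPKM in the control libraries and 2020 and 2270 RPKM with shRNA1 (0.02, SE 0.20). The groups overlapped for both. RPS27L had 0.05 (SE 0.15).

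These values depended on single libraries. Without control A the median was -0.170 and 13 genes fell (16.7%, against 14.9% of all tested genes). Without control B the median was -0.549 and 72 genes fell (92.3%, against 20.7%). Without TAZ_shRNA1 A or B the median was -0.344 or -0.363 and no gene fell. With an arm reduced to 1 library, that library is assumed to vary like the other group. The count of genes with groups that did not overlap was 65 without control A and 77 without control B, against 43.0% and 43.5% of all tested genes. Leaving out a library can only keep or raise this count. All 78 tested members were higher in control A than in control B, so leaving out control A could not change it.

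**Figure D3:**
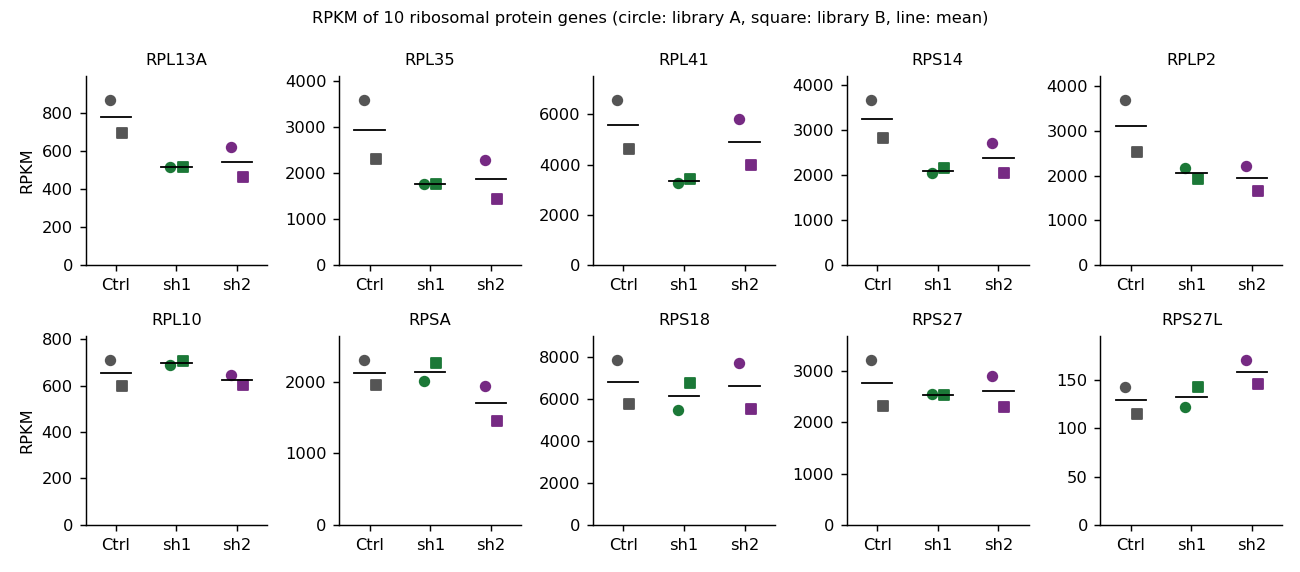
RPKM (linear axes from 0) of 10 ribosomal protein genes in the control, TAZ_shRNA1 and TAZ_shRNA2 libraries; circles are library A, squares library B and lines the mean of 2. RPL13A, RPL35, RPL41, RPS14 and RPLP2 lie below both controls in both shRNA1 libraries, whereas RPL10, RPSA, RPS18, RPS27 and RPS27L with shRNA1 overlap with the control.

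TAZ_shRNA2, the hairpin with the stronger loss of TAZ, was compared with the same control libraries, so its fold changes are not independent of those above. Of the 78 genes, 77 had a lower value (50.5% of all tested genes), and the median log2 fold change was -0.364, against -0.005 over all 10659 tested genes. For 38 of 78, both hairpin libraries were below both control libraries, against 31.1% of all tested genes. No gene fell or rose in the limma test, while 7.61% of all tested genes fell and 8.12% rose. At an unadjusted p under 0.05, RPL21 and RPS10 had lower values (2.56% of the 78, against 16.1% of all genes). The count of such genes was 14 without a variance trend, and 17 and 24 by limma-voom with TMM and with total-read scaling. With total-read scaling 1 member had a higher value at that limit. The share of all genes at that limit is not given for these fits either, so these counts have no background to be read against. At the adjusted threshold, 0 members fell without a variance trend, against 6.47% of all tested genes. Limma-voom on the reads recovered from the RPKM called 0 with TMM scaling, against 8.05% of all tested genes lower. Scaled to total reads, limma-voom called 2 lower, RPL14 (-0.54) and RPLP2 (-0.61), against 6.59% of all genes. The authors' deposited table has 44 of 80 genes lower, against 18.9% of all listed genes.

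The lowest were RPL21, RPL35, RPLP2, RPS10 and RPS21. RPL21 had 19.6 and 15.1 RPKM in the control libraries and 13.4 and 7.30 RPKM with shRNA2 (log2 fold change -0.77, SE 0.27, limma adjusted p = 0.0923), and carries the read-assignment doubt given above. RPL35 had 2290 and 1430 RPKM with shRNA2 (-0.67, SE 0.36), so TAZ_shRNA2 A was level with control B at 2300 RPKM. RPLP2 had 3680 and 2520 RPKM in the control libraries and 2220 and 1660 RPKM with shRNA2 (-0.66, SE 0.33, limma adjusted p = 0.204). In RPLP2 the groups did not overlap. RPS10 had 498 and 365 RPKM in the control libraries and 334 and 227 RPKM with shRNA2 (-0.63, SE 0.25, limma adjusted p = 0.132). RPS21 had a fold change of -0.60 with the 2 groups close to touching, at 1060 RPKM in control B and 1050 RPKM in TAZ_shRNA2 A.

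RPS27L was the only tested gene with a higher mean, at 143 and 115 RPKM in the control libraries and 170 and 146 RPKM with shRNA2 (log2 fold change 0.30, SE 0.18, limma adjusted p = 0.289). RPS18, RPL15, RPL10 and RPS27 came next, at -0.04, -0.07, -0.07 and -0.08. RPS18 joins the head of the small subunit, and RPL15 is a large subunit protein mutated in some Diamond-Blackfan families.

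Here too single libraries decided the size. Without control A the median was -0.163, without control B -0.564, and without TAZ_shRNA2 B -0.186. The log2 fold change of RPL21 was -0.95 without control B and -1.18 without TAZ_shRNA2 A. The count of genes with groups that did not overlap was 76 without control B (42.0% of all tested genes) and 75 without TAZ_shRNA2 A (41.9%), against 38 with all libraries. This count too can only stay or rise when a library is left out. For 36 of 78 genes all 4 hairpin libraries were below both control libraries, against 20.1% of the genes tested in both comparisons.

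The hairpins were then compared with each other in a fit of all 6 libraries. No ribosomal protein gene differed in the limma test, whereas 10.9% of all tested genes did, and 38 of 78 had a lower value with shRNA2. The median log2 difference, shRNA2 minus shRNA1, was 0.002. At the extremes, RPL41 was higher with shRNA2, at 5810 and 4000 RPKM against 3250 and 3440 RPKM (difference 0.53, limma adjusted p = 0.281), and RPL21 was lower (-0.49, limma adjusted p = 0.249). RPSA followed with 1940 and 1460 RPKM under shRNA2 against 2020 and 2270 RPKM under shRNA1 (-0.35, limma adjusted p = 0.364). Leaving out TAZ_shRNA2 A or B put the median difference at -0.194 or 0.176, and the RPL21 difference without TAZ_shRNA2 A was -0.91.

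Ribosomal protein genes are short, and the libraries differed in how level depends on gene length. The median gene-model length implied by the RPKM was 791 bases for the tested members and 2947 bases for the other tested genes, and 53 of the 78 were under 1000 bases. Across all tested genes, the slope of a library's log2 value against log2 length, relative to the mean of the 6 libraries, was -0.137 in control A and -0.011 in control B. It was 0.05 and 0.077 in TAZ_shRNA1 A and B and -0.041 and 0.062 in TAZ_shRNA2 A and B. Control A thus gave the most weight to short genes. The 722 other tested genes under 1000 bases had medians of 0.171, -0.171, -0.281, -0.335, -0.063 and -0.338 in the same order of libraries.

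Set beside genes of like length, the members' medians were close to the others' with shRNA1 at 600 to 1000 bases and lower in the other length classes. The 27 members of 600 to 1000 bases had a median log2 fold change of -0.314 with shRNA1, and the 477 other genes of that length had -0.319. With shRNA2 the medians were -0.365 for the members and -0.229 for the other genes. Below 600 bases, the 26 members had -0.414 with shRNA1 and -0.370 with shRNA2, against -0.309 and -0.103 for the other genes. From 1000 to 2000 bases, the 15 members had -0.341 and -0.331, against -0.189 and -0.157. The 10 members of 2000 bases or more, such as RPL27A (4879 bases), RPL13 (4672 bases) and RPL28 (4401 bases), had lower medians than other long genes. Their medians were -0.381 and -0.363, while other genes of that length had 0.082 and 0.052. Those other genes were not matched for level. Other genes of any length with 100 RPKM or more in the control had -0.185 and -0.214. The 165 other genes that were both at that level and under 1000 bases had -0.3 and -0.256. These are gene-model lengths, which can include exons that the main transcript of the gene lacks.

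**Figure D4:**
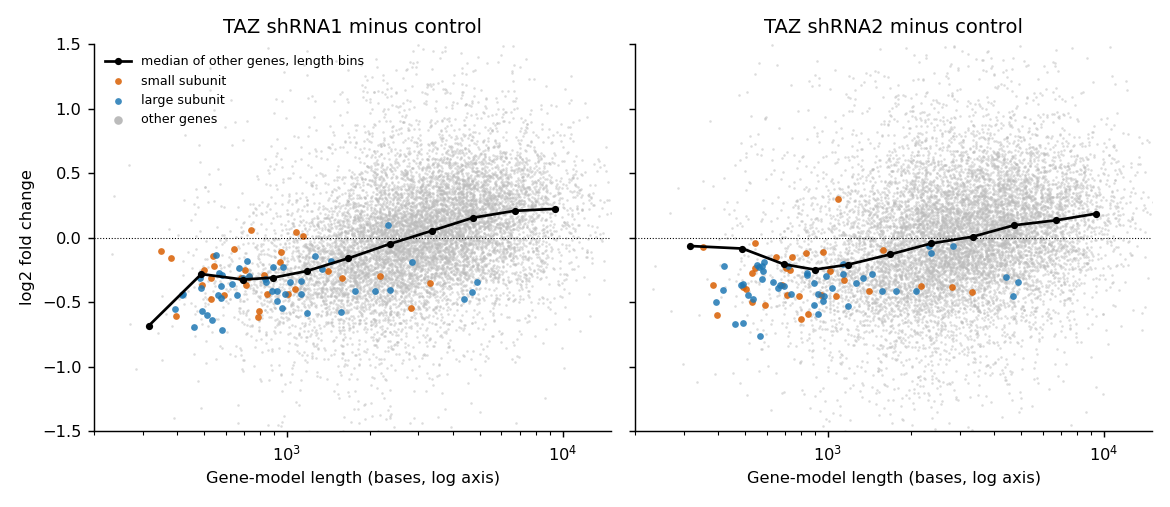
Log2 fold change against gene-model length (log axis) for each hairpin minus control, with small and large subunit genes coloured, other genes in grey and their median per length bin as a line (other genes beyond 1.5 in either direction are not drawn). The line rises with length, and short ribosomal protein genes scatter around or below it while the 10 members of 2000 bases or more lie mostly below it.

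After a smooth curve over gene length was taken out of every library, the median of the members was -0.081 with shRNA1 and -0.157 with shRNA2. In that fit 6 genes fell with shRNA1 (RPL13A, RPL35, RPL36, RPL41, RPS14 and RPS24), against 8.94% of all tested genes lower (10.7% were higher). With shRNA2, 8 fell (RPL13A, RPL14, RPL21, RPL35, RPLP2, RPS10, RPS16 and RPS19) and RPS27L rose, against 11.3% lower and 12.3% higher. RPL13A and RPL35 were in both lists, which share the control libraries. For shRNA2 minus shRNA1, RPL21, RPL23A, RPS2, RPS28 and RPSA were lower (8.98% of all genes) and RPL41 was higher (7.92%). The members' shares of 7.69%, 10.3% and 6.41% lower were thus near those of all genes. Without control A, 3 genes fell with shRNA1 and 1 with shRNA2, against 10.7% and 10.2% of all genes. Without control B, 21 and 12 fell (26.9% and 15.4% of the members, against 11.1% and 8.81%). No call was made without either shRNA1 library in the first comparison or either shRNA2 library in the second.

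A fit relative to the members' own median asked which genes moved away from the rest. Each library's median over the 78 genes was subtracted from all genes before the test, which takes out the shift that the members share. It also takes out the spread between libraries that the members share. With shRNA1 the SE of RPL41 was 0.08 and that of RPL35 0.10, against 0.25 for both without centring. That of RPL21 was larger, at 0.26 against 0.15. The p-values of this fit are thus not on the same footing as those above. With shRNA1, 4 members were lower (1.72% of all tested genes were) and 4 were higher (18.6% of all tested genes). With shRNA2, 2 were lower (1.33%) and 2 were higher (8.21%). By construction the centring raises every gene's fold change by the size of the members' shift, so the shares of all genes are unequal in the 2 directions.

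Relative to the other members, RPL41, RPL35, RPS14 and RPLP1 fell with shRNA1. RPL41 fell most, by 0.39 on the log2 scale (SE 0.08, limma adjusted p = 0.000111), and its value with shRNA2 was 0.14 (limma adjusted p = 0.399). RPL35, a large subunit protein at the exit of the peptide tunnel, had -0.36 (SE 0.10, limma adjusted p = 0.00281) with shRNA1 and -0.34 (SE 0.11, limma adjusted p = 0.0361) with shRNA2. RPS14 had -0.29 (limma adjusted p = 0.0184) with shRNA1 and -0.13 with shRNA2. The stalk proteins RPLP1 and RPLP2 each passed with 1 hairpin: RPLP1 had -0.27 (limma adjusted p = 0.0116) with shRNA1, and RPLP2 had -0.34 (limma adjusted p = 0.0353) with shRNA2.

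RPL10 and RPSA were among the genes that rose relative to the other members with shRNA1. RPL10 rose by 0.43 (SE 0.13, limma adjusted p = 0.0105) and RPSA by 0.34 (SE 0.10, limma adjusted p = 0.00592). With shRNA2 the genes that rose were RPS27L, by 0.62 (SE 0.20, limma adjusted p = 0.0217), and RPS18, by 0.28 (SE 0.09, limma adjusted p = 0.0356). RPL10 is one of the longer members at 2318 bases. Its fold change without centring on the members was 0.10, and with the length trend removed it was 0.15 (limma adjusted p = 0.317).

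Each of these calls was lost in at least 1 fit that left out a library. With shRNA1, RPL10 and RPL41 passed without control A and without control B, whereas RPS18 alone passed without TAZ_shRNA1 A and RPL41 alone without TAZ_shRNA1 B. With shRNA2, none passed without control A, RPL35 and RPS27L passed without control B, RPL35 alone without TAZ_shRNA2 A and RPS18 alone without TAZ_shRNA2 B.

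**Figure D5:**
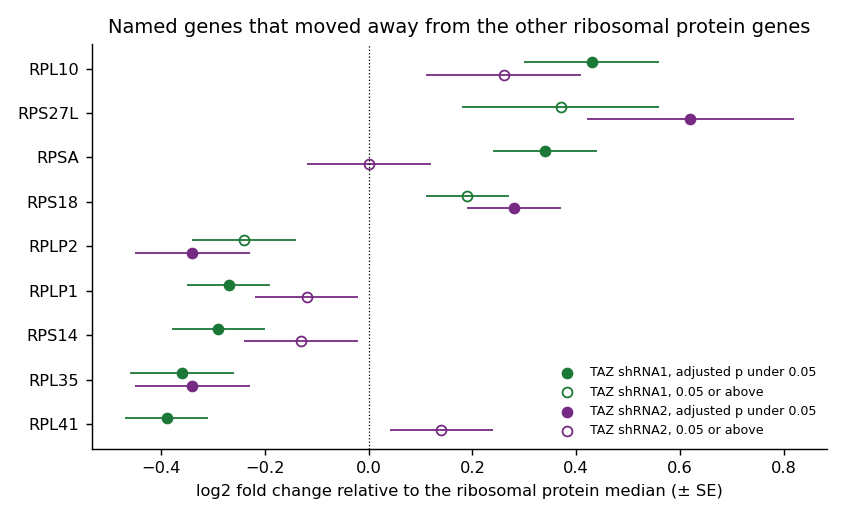
Log2 fold change (± SE) relative to the median of the ribosomal protein genes for 9 of the 11 genes with an adjusted p under 0.05 with either hairpin; filled points passed, open points did not. Of those drawn, only RPL35 is filled for both hairpins, and RPL41 and RPSA lie farther from 0 with shRNA1 than with shRNA2.

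By subunit, the median log2 fold change with shRNA1 was -0.307 for the 31 small subunit genes and -0.405 for the 47 large subunit genes, and with shRNA2 it was -0.370 and -0.358. For the stalk, RPLP0 had -0.15 and -0.35, RPLP1 -0.60 and -0.44, and RPLP2 -0.57 and -0.66 with shRNA1 and shRNA2. RPLP0 was at 3370 and 2700 RPKM in the control libraries and 2680 and 2770 RPKM with shRNA1, so it overlapped where RPLP1 and RPLP2 did not. RPL5 and RPL11, which form a particle with 5S ribosomal RNA that binds MDM2 when ribosome assembly is disturbed, had -0.34 and -0.36 with shRNA1 and -0.39 and -0.35 with shRNA2. All 4 values were close to the members' medians.

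Genes mutated in Diamond-Blackfan anaemia, an inherited failure of red cell production, were not set apart. The 18 of the 19 listed that were tested under these names had medians of -0.327 with shRNA1 and -0.367 with shRNA2, and all 18 had lower values in either comparison. RPS19, the gene most often mutated, had 2200 and 1570 RPKM in the control libraries, 1410 and 1330 RPKM with shRNA1 and 1390 and 1090 RPKM with shRNA2 (log2 fold changes -0.44 and -0.60). RPL22, deleted in some leukaemias, had 373 and 309 RPKM in the control libraries, 262 and 248 RPKM with shRNA1 and 265 and 246 RPKM with shRNA2 (-0.41 with either). All RPS19 and RPL22 hairpin values were below both control values. RPS6 had -0.29 and -0.12, RPL3, which lies near the peptidyl transferase centre, -0.24 and -0.31, and RPL7 -0.32 and -0.28.

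The paralog pairs were compared by value. RPS27 had 3210 and 2320 RPKM in the control libraries, 2560 and 2530 RPKM with shRNA1 and 2900 and 2310 RPKM with shRNA2, with fold changes of -0.10 and -0.08. RPS27L had 0.05 and 0.30, and its correlation with the mean of the other members over the 6 libraries was the lowest of all, at 0.081. RPL36A had -0.41 and -0.12, and RPL36AL -0.47 and -0.32. RPS27A, which is made as a fusion with ubiquitin, had -0.40 and -0.45.

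Most members rose and fell together from library to library. Over the 6 libraries, which share their preparation and scaling, the correlation of a gene with the mean of the other members reached 0.997 for RPL35 and RPL38. Low values besides that of RPS27L were 0.422 for RPL10, 0.661 for RPSA and 0.753 for RPS18. Among the 3411 other genes that averaged 20 RPKM or more, the profiles most like the members' mean were those of TRMT112 (r = 0.996), SARNP (0.995), MRPL36 (0.992), MRPL14 (0.990) and PARK7 (0.989). TRMT112, for example, had 101 and 78.1 RPKM in the control libraries, 66.8 and 68.1 RPKM with shRNA1 and 78.9 and 57.1 RPKM with shRNA2.

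Other genes tied to the ribosomal protein messages were read from fixed lists. For the counts in all of these lists, 8.58% of all tested genes fell and 9.99% rose with shRNA1. With shRNA2, 7.61% fell and 8.12% rose. Of the 6 ubiquitin fusions and paralogs outside the naming rule, RPL22L1 (-0.51, limma adjusted p = 0.0297) and RPL26L1 (-0.75, limma adjusted p = 0.0158) fell with shRNA1 and none changed with shRNA2. The fusion FAU had -0.21 with shRNA1 and -0.28 with shRNA2. Of 31 tested TOP messages that encode other proteins or host small nucleolar RNAs, 4 fell and 0 rose with shRNA1 (EEF1D, EIF3M, HNRNPA1 and SNHG1), with a median of -0.185. With shRNA2, 2 fell and 0 rose (EEF1D and SNHG1), with a median of -0.286. Genes outside the members with 100 RPKM or more in the control had medians of -0.185 with shRNA1 and -0.214 with shRNA2. EEF1A1, which encodes the elongation factor that brings aminoacyl-tRNA to the ribosome, had fold changes of 0.05 and -0.16, with 10300 and 9280 RPKM in the control libraries, 9700 and 10600 RPKM with shRNA1 and 9480 and 8060 RPKM with shRNA2.

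Among 16 genes of the mTORC1 and LARP1 control of TOP messages, EIF4EBP1, which encodes the repressor 4E-BP1 of the cap-binding protein, fell with both hairpins. Its RPKM was 194 and 305 in the control libraries, 118 and 109 with shRNA1 and 109 and 86.7 with shRNA2 (log2 fold changes -1.10 and -1.32, limma adjusted p = 0.0156 and 0.0145). RPS6KB2, an S6 kinase gene, fell with shRNA1 (-1.19, limma adjusted p = 0.00210). With shRNA2, MLST8 fell (-1.05, limma adjusted p = 0.0453) and EIF4EBP2 rose (0.67, limma adjusted p = 0.0236). MTOR, RPTOR and LARP1 did not pass with either hairpin. Of 12 chaperones and importins of ribosomal proteins, IPO7 rose with shRNA1 (0.66, limma adjusted p = 0.0319) and none changed with shRNA2.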

How the data were processed

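Total RNA of 6 libraries was sequenced. The submitters' processing notes name build hg19 and the tools edgeR 3.8.6, DESeq 1.18.0, HTSeq 0.6.1p2, TopHat2 2.0.11 and Trim Galore 0.4.0, without their roles. No strand setting or gene filter is given in the sources used here. Per the file headers, the authors deposited RPKM in 1 table per hairpin, with their log2 fold change, average log2 CPM, likelihood-ratio score and p-value. The control columns are identical in both tables, and 0 columns stayed unmatched. Of 13004 rows, 2 exact repeats were dropped.

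RPKM were tested as log2(RPKM + 0.5) with limma 3.58.1 (R 4.3.3) for genes that averaged 1 RPKM or more, with Benjamini-Hochberg adjustment over all tested genes and a threshold of 0.05. Whole reads (within 0.05 reads) were recovered from the RPKM steps for 100% of genes, from which depth, gene length and a limma-voom alternative were taken: it called 2185 genes with shRNA1 and 1883 with shRNA2. Letters A and B were not used as a block. Trends with length were removed by lowess (span 0.3). Scripts were tested on simulated data. Members and gene lists were chosen with earlier results of these data known. Genes named: those called, the 5 lowest and 5 highest by fold change and by control level, a list by role, and those called relative to the members' median. GENCODE release 29 gave GC content only. Results of some genes are not reported here.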

Additional observations from a re-analysis of the deposited data

Results flagged for a closer look

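TAZ itself differed between the hairpins: its log2 level with TAZ_shRNA2 was -1.0 relative to TAZ_shRNA1 (limma adjusted p = 0.00801), with both shRNA2 libraries below both shRNA1 libraries. No ribosomal protein gene passed that comparison. Groups of 2 libraries allow no test of whether a library stands apart from its group.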

How the results depend on the processing

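Members' medians stayed below 0 against the control under every alternative run. With shRNA1 they were -0.104 after quantile normalization and -0.081 with the length trend removed, and -0.549 to -0.170 with single libraries left out; with shRNA2 single libraries gave -0.564 to -0.163, and between the hairpins -0.194 to 0.176. The count of genes called with shRNA1 was 1; it was 0 without a filter and in 1 fit of all 6 libraries, 2 with a filter at 5 RPKM, median centring or robust estimation, 4 without a variance trend, 7 with the length trend removed, 9 after quantile normalization, 10 by limma-voom on recovered reads with or without scaling factors, and 0 to 72 with single libraries left out. With shRNA2 the count was 0 (15.7%), but 1 without a filter (12.3%) and 4 after quantile normalization (17.4%). It was 9 with the length trend removed (23.6%) and 2 by limma-voom on total reads (16.7%). Between the hairpins the count was 1 without a filter (9.15%) or after quantile normalization (12.6%), and 6 with the length trend removed (16.9%).

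The letters A and B carry no stated meaning; the A minus B differences of the groups correlated at 0.259 to 0.423 over all genes and at -0.319 to 0.444 over the members. With the letter as a replicate block, 13 genes fell with shRNA1 (16.7%, against 17.6% of all tested genes) and 68 were called with shRNA2 (67 lower, 85.9%, against 20.3%), where all libraries without the block gave 0, and 18 were called relative to the members' median with shRNA2 (23.1%, against 54.2%). Single libraries left out gave 1 to 18 and 0 to 2 relative calls for shRNA1 and shRNA2. Further counts were run without single libraries after the data were seen: genes without overlap (65 to 77 for shRNA1 and 38 to 76 for shRNA2) and calls with the length trend removed (0 to 22, 0 to 13 and 0 to 6 for shRNA1, shRNA2 and their difference).

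As a share of summed RPKM, the members took 31.7% in control libraries, 27.7% under shRNA1 and 27.8% under shRNA2, and with the 10 most abundant other genes left out the shares of reads were 16.0%, 13.1% and 13.5% (exact permutation p = 0.333 and 0.667). Leaving out a library gave 13.4% to 16.2%, 11.8% to 12.2% and 11.3% to 13.4% for the 3 groups. RPL13A kept its sign in every alternative of its comparison with shRNA1. RPS27 with shRNA1 was called lower without control B (-0.34) and higher with the length trend removed and without control A (0.29). The cause of these differences was not tested. Each tested member had at least 83 reads in a library.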
